A study of Mus musculus with 82 samples.

Results

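The regions described here were the intergenic peaks of H3K27ac, the acetylation of lysine 27 on histone H3, in mouse hematopoietic stem cells (HSCs), the self-renewing cells of the bone marrow from which every blood lineage descends. They were the distinct peaks that the deposited H3K27ac table annotates as intergenic, and they numbered 12221 of the 39557 distinct peaks, beside 13680 in gene bodies, 13392 at promoters and 264 at transcript ends. Male C57BL/6J mice, with no engineered allele or treatment named in their labels, were young (3 to 4 months) or old (24 to 26 months), and their HSCs were sorted as LSK (lineage-negative, Sca-1+, c-Kit+) CD34- Flk2- CD150+ cells. H3K27ac was measured in 2 libraries per age, chromatin accessibility (ATAC-seq) in 4 libraries per age and RNA in 4 young and 8 old libraries. The old ATAC-seq libraries were replicates 5 to 8, and further old ATAC-seq libraries of the study were not analysed here. Young RNA samples came from pooled mice and old ones from individual mice, so differences between single animals are averaged in the young samples. The study calls the 2 H3K27ac libraries of an age biological replicates, the labels do not tie them to animals, and p-values measure only the spread between these samples.

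H3K27ac is laid down by the acetyltransferases p300 and CBP at active promoters and active enhancers. Enhancers are stretches of DNA, often far from any gene, to which transcription factors bind and from which they raise the transcription of a gene on the same chromosome. In blood stem cells, factors such as GATA2, RUNX1, TAL1, LMO2, PU.1 and members of the ETS and AP-1 families act largely through such distal elements. H3K4me3, the trimethylation of lysine 4, marks promoters most strongly, H3K27me3 is the mark of Polycomb repression, and H3K36me3 covers the bodies of transcribed genes.

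The 9 sequences below show DNA at or beside the overlap of a changed H3K27ac peak and a changed accessible region. They are 200 bases each on the plus strand of GRCm38, read from the RefSeq genome and centred on the part of the peak that overlaps an accessible region called in the same direction. Among peaks with such a region, the first 3 are the largest rises with distinct nearest genes, the next 3 are the peaks of blood regulators that limma called, and the last 3 are the largest falls. Of the 9 windows, 8 lie wholly in both the peak and the region, and the Gata2 window shares 60 of its 200 bases with both. Capitals mark matches, on either strand, to any of 7 motifs. For GATA factors the letters were AGATAA. For AP-1 they were TGANTCA. For RUNX factors they were TGTGGTT. For ETS factors they were CCGGAAG. For PU.1 they were GAGGAAGT. For MEIS factors they were TGACAG, and the CTCF core motif was the last.
Upstream of Car10, chr11:92606832-92607031: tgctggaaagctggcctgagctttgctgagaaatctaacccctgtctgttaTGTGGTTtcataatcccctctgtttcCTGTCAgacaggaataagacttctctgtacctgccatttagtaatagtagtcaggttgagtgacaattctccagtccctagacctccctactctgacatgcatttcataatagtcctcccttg
Upstream of Ghitm, chr14:38245176-38245375: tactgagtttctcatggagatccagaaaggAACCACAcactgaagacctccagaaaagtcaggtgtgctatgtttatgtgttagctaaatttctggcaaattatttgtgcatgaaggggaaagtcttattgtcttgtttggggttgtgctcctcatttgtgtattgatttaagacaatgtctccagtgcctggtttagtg
Upstream of Sgk1, chr10:21773631-21773830: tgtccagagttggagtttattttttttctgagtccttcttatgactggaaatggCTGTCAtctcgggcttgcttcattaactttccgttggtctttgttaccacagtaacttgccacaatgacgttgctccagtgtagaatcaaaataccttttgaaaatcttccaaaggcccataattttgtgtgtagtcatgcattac
Upstream of Runx1, chr16:93125259-93125458: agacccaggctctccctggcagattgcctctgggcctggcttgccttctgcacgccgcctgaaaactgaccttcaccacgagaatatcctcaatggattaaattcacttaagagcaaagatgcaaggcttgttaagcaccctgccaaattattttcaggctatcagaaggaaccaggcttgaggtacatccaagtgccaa
Upstream of Gata2, chr6:88166323-88166522: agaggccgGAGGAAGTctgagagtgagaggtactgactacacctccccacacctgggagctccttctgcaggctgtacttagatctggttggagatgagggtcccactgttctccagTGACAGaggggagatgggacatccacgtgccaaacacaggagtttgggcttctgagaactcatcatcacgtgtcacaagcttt
Downstream of Bcl11a, chr11:24235981-24236180: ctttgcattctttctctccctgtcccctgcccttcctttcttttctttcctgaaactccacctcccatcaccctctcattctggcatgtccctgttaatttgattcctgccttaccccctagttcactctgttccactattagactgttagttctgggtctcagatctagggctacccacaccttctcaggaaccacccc
Upstream of Ascc3, chr10:50312574-50312773: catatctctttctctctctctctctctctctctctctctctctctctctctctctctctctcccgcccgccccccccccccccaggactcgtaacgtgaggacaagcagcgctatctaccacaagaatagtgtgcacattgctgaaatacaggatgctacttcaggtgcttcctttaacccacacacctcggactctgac
Upstream of Crb2, chr2:37758337-37758536: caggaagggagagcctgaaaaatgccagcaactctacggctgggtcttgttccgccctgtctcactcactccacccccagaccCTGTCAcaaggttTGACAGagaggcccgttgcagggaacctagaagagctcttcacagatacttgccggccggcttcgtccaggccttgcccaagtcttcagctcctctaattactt
Downstream of Msrb3, chr10:120708145-120708344: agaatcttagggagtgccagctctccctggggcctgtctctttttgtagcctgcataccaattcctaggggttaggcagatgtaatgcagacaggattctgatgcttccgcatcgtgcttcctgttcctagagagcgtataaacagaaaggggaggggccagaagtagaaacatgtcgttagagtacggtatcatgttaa

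Among these windows, the one upstream of Car10 held a RUNX match from base 52 and, on the other strand, a MEIS match from base 78. The window upstream of Ghitm held a RUNX match from base 31 on the minus strand, and the one upstream of Sgk1 a MEIS match from base 55 on the minus strand. The Gata2 window held a PU.1 match from base 9, which lies in the accessible region and before the start of the H3K27ac peak, and a MEIS match from base 118, which starts in both, and the Crb2 window 2 MEIS matches from bases 84 and 97 on opposite strands. The windows of Runx1, Bcl11a, Ascc3 and Msrb3 held none of the 7 motifs. In the middle 200 bases of all H3K27ac peaks with sequence, a MEIS match was found in 13.1%, a RUNX match in 4.99% and a PU.1 match in 3.15%. A match is a string of letters and not a measured binding site.

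H3K27ac signal was higher in old than in young HSCs at more intergenic peaks than it was lower. By the fold rule (a ratio above 1.5 between the means, and every old library at least 1.2 times above or below every young one), 1561 of the 12221 intergenic peaks were higher (12.8%) and 335 were lower (2.74%), where 9.11% of all H3K27ac peaks were higher and 2.27% lower. Most of the higher peaks, 1324 of the 1561, had been called as peaks in old HSCs alone, and of the 6766 intergenic peaks called in both ages 236 were higher (3.49%) and 77 lower (1.14%). limma on log2(signal + 0.5) over all peaks, at an adjusted p below 0.05, called 451 intergenic peaks higher (3.69%, against 2.71% of all peaks) and 45 lower (0.368%, against 0.465% of all peaks). Of these 451, 334 had been called as peaks in old HSCs alone, and of the 6766 called in both ages limma called 116 higher (1.71%) and 19 lower (0.281%). The fold rule and limma shared 435 higher and 43 lower peaks. The split between directions depended on the scale: with every library scaled to the same median the fold rule gave 1228 higher and 515 lower peaks, and after quantile normalization 864 and 701. Leaving out 1 library gave 1689 to 2888 higher and 445 to 713 lower peaks by the fold rule, and 26 to 1588 higher and 1 to 234 lower by limma, which then takes the lone library of an age to vary like the others. The highest counts of higher peaks came without young replicate 1 and of lower peaks without young replicate 2, and limma called 88 and 26 higher peaks without old replicate 1 and old replicate 2.

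The median signal of the intergenic peaks was 1.61 and 1.44 in the 2 young libraries and 1.63 and 1.68 in the 2 old ones, in the units of the deposited table. Bulk signal cannot tell more cells with the mark from more of it per cell. The second young library was the lowest, and the first young library lay just below both old libraries. In the study's own list of deduplicated reads, the second young library has the fewest of these libraries. Both old libraries have more than both young ones there, so depth and age cannot be told apart. The part of depth in the results was not tested. The median of the peaks' changes in log2(signal + 0.5) was 0.11, and the 4 possible pairs of an old and a young library gave 0.02 to 0.19. This shift depended on the scale: the difference between the ages' median levels, 0.09 as deposited, was 0.02 with libraries scaled to the same median and 0.000989 after quantile normalization. On the deposited scale, a higher mean signal in old HSCs was found at 64.0% of intergenic peaks, at 63.2% of gene body peaks and at 44.6% of promoter peaks.

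Within each library, the median level of intergenic peaks relative to promoter peaks depends little on a factor common to that library. On the log2 scale it was -1.10 and -1.05 in the young libraries and -0.94 and -0.96 in the old ones, so the ages did not overlap and the gap to promoters narrowed by 0.12 in old HSCs (0.13 with libraries scaled to the same median, and 0.0439 after quantile normalization). Relative to gene body peaks, the level was -0.09 and -0.08 in the young libraries and -0.09 and -0.08 in the old ones, and the ages overlapped. An exact permutation test of 2 against 2 libraries cannot give a two-sided p below 0.33. Of the intergenic peaks, 34.5% had been called in old HSCs alone and 10.1% in young HSCs alone, so the narrowing carries that choice. The median log2 change was 0.34 at intergenic peaks called in old HSCs alone and 0.04 at those called in both ages. Intergenic and gene body peaks had like shares of higher peaks, 12.8% and 12.03%, and promoter peaks 2.71%.

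**Figure D1:**
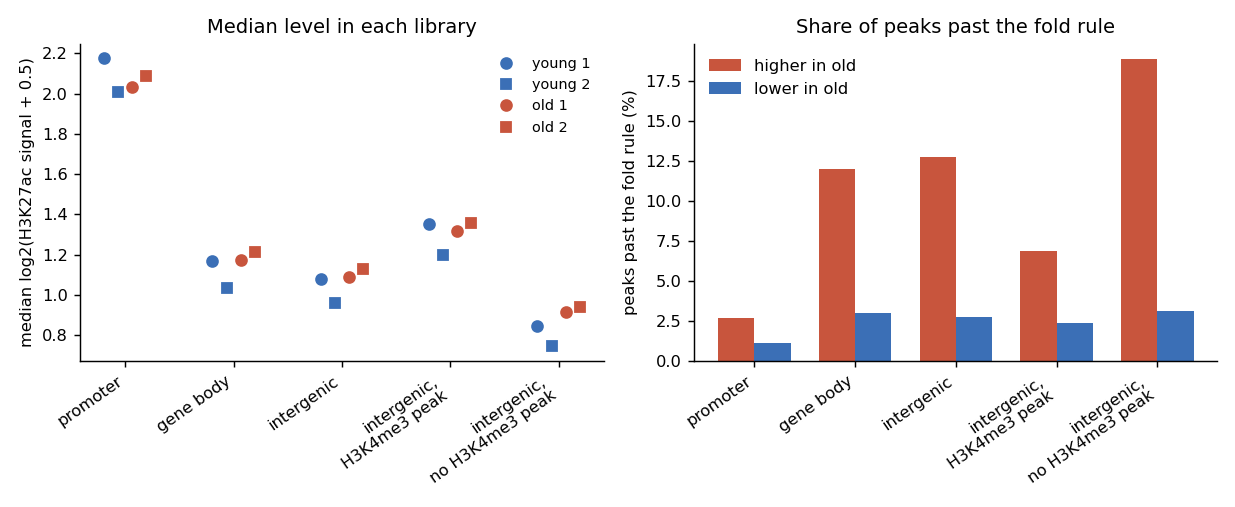
Left, the median log2(H3K27ac signal + 0.5) of promoter, gene body and intergenic peaks and of intergenic peaks with and without an H3K4me3 peak, 1 point for each of the 2 young (blue) and 2 old (red) libraries. Right, the percent of each set that was higher (red) or lower (blue) in old HSCs by the fold rule, which reached 18.9% higher at intergenic peaks without H3K4me3 and 2.71% at promoters.

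The peaks that were higher had little signal in young HSCs. Their median signal was 0.883 and 0.788 in the young libraries and 1.52 and 1.61 in the old ones, while the lower peaks went from 1.59 in both young libraries to 0.930 and 0.910 in the old ones. These values were used by the fold rule and describe the peaks it picked. Of the intergenic peaks with a mean signal below 1 over the 4 libraries, 41.4% of 1168 were higher and 5.14% lower; at a mean of 2 to 4, 6.597% of 3138 were higher and 1.15% lower. Gene body peaks of the same levels gave 40.4% and 6.91% higher. Promoter peaks gave 37.4% higher below 1 and 1.73% at 2 to 4, so at low signal the classes were alike and at a mean of 2 to 4 intergenic peaks exceeded promoters.

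The table's own record of the peak calls was also uneven. Peaks called in both ages made up 55.4% of the intergenic peaks (6766), peaks called in old HSCs alone 34.5% (4217) and peaks called in young HSCs alone 10.1% (1238). Of the peaks called in old HSCs alone, 1324 were higher by the fold rule, and of those called in young HSCs alone, 258 were lower. Of the 6766 peaks called in both ages, 3.49% were higher and 1.14% lower, with a median change of 0.04 on the log2 scale and -0.05 to 0.13 over the 4 pairs of libraries. The calls and the signal come from the same libraries and are not independent.

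**Figure D2:**
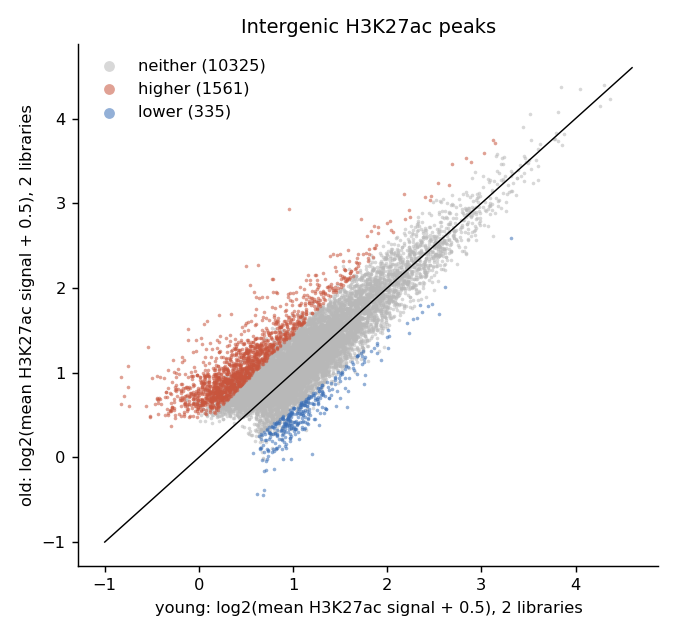
The log2 of the mean H3K27ac signal plus 0.5 in the 2 young (horizontal axis) and 2 old libraries (vertical axis), 1 point for each of the 12221 intergenic peaks, with the line of equal levels. The 1561 higher peaks (red) crowd at low young signal, and the 335 lower peaks (blue) lie below the line.

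The presence of H3K4me3 divided the intergenic peaks into 2 sets of like size that behaved differently. An H3K4me3 peak overlapped 6212 of them (50.8%), against 48.5% of gene body peaks and 97.4% of promoter peaks, and the H3K4me3 there was weak, with a median young signal of 2.94 against 18.8 at promoters. Of the 6009 intergenic peaks without H3K4me3, 18.9% were higher and 3.11% lower in old HSCs, and of those with it, 6.86% and 2.38%. Among peaks with a mean H3K27ac signal of 1 to 2, where both sets are well filled, 14.6% of the peaks without H3K4me3 and 7.82% of those with it were higher. Gene body peaks of that level split alike, with 14.4% higher without H3K4me3 and 8.78% with it. Within each library, peaks without H3K4me3 lay below those with it by -0.51 and -0.45 on the log2 scale in young HSCs and by -0.40 and -0.41 in old HSCs, so the ages did not overlap and the gap narrowed by 0.07. Both sets hold peaks called in 1 age alone, so this gap carries that choice. Seen from the changed peaks, H3K4me3 lay on 27.3% of the higher, 44.2% of the lower and 54.6% of the other intergenic peaks.

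The other marks differed less. H3K27me3 domains overlapped 13.8% of the intergenic peaks, 15.5% of the higher and 19.1% of the lower ones. H3K36me3 domains overlapped 9.001% of them, against 52.2% of gene body peaks, and 10.1% of the higher and 6.27% of the lower ones. The annotation of the table left some gene starts among its intergenic peaks: a transcript start of GENCODE M21 lay within 1 kb of 1219 (9.97%), of which 427 were lincRNA and 298 protein-coding starts. Without these peaks and the 90 in regions of low mappability, 1447 peaks were higher and 304 lower by the fold rule. The middle of 2366 of the 12221 intergenic peaks lay inside a GENCODE M21 gene, and that of 274 inside a curated RefSeq transcript.

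The intergenic peaks lay a median 44045 bases from the nearest start of a curated protein-coding transcript, and 4.91% lay within 5 kb, 48.3% at 5 to 50 kb, 43.0% at 50 to 500 kb and 3.805% farther away. The share that was higher in old HSCs was 11.5%, 11.3%, 13.9% and 20.4% in these ranges of distance, and the share that was lower 1.67%, 2.59%, 2.95% and 3.44%. Peaks with less G and C were also more often higher: 21.6% of the 1044 peaks whose middle 500 bases held under 40% G and C, against 6.59% of the 637 with 60% or more. Another higher intergenic peak lay within 50 kb of 374 of the higher peaks (23.96%), and another lower one within 50 kb of 15 of the lower peaks (4.48%), while 70.3% of all intergenic peaks had another intergenic peak within that distance; these shares rest on sets of unequal size and were not compared by a test.

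Motif matches were counted in the middle 500 bases. AGATAA was found in 29.8% of the higher, 22.5% of the lower and 24.1% of the other intergenic peaks, and TGANTCA in 22.9%, 13.8% and 18.7%, where all H3K27ac peaks had 18.4% and 14.6%. GAGGAAGT showed the other order, with 5.77% of the higher, 10.8% of the lower and 9.27% of the other peaks, against 7.21% of all. Restricted to peaks without H3K4me3, the shares were 31.5% of the higher and 26.9% of the other peaks for AGATAA, 24.5% and 21.02% for TGANTCA, and 6.08% and 10.3% for GAGGAAGT. TGTGGTT was found in 15.1% of the higher, 12.6% of the lower and 14.8% of the other peaks, and without H3K4me3 in 15.0% of the higher and 17.0% of the other peaks, so the order of these sets turned. TGACAG was found in 33.1%, 35.6% and 31.9%, and without H3K4me3 in 35.2% and 33.7%. The CTCF core motif was found in 2.63%, 4.19% and 2.89%, and without H3K4me3 in 2.56% and 2.20%, where the order also turned. CCGGAAG was found in 3.27%, 2.99% and 5.40% of these sets and in 17.5% of promoter peaks, and without H3K4me3 in 2.82% and 3.07%. These shares are descriptions, without a test.

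The 8 largest rises among intergenic peaks called by both the fold rule and limma are given with all 4 libraries, and the fold rule that chose them requires that the ages do not overlap. All 8 had been called as peaks in old HSCs alone, so they entered the set through the libraries where they are high. Their p-values are therefore no independent support. Adjusted p-values without a named test below are from limma. The largest, 67.9 kb upstream of Ppara, which encodes a nuclear receptor of fatty acid oxidation, had signals of 1.51 and 1.36 in the young and 6.58 and 7.72 in the old libraries (chr15:85667325-85667913, log2 change 1.98, SE 0.16, adjusted p = 3.39e-10). No accessible region that passed the filter lay on it, and Ppara RNA changed by 0.01 on the log2 scale. A peak 492 kb upstream of Car10, a gene for a carbonic anhydrase-related protein, went from 0.0899 and 0.101 to 1.73 and 1.51 (chr11:92605878-92607369, log2 change 1.83, adjusted p = 3.75e-05). The old libraries lay clear of the young ones at both peaks, and in old HSCs the Car10 peak stayed well below the Ppara peak.

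The accessible region on the Car10 peak had a read count scaled to library size (CPM) of 0.592 to 1.17 in the 4 young and 6.16 to 8.12 CPM in the 4 old libraries (log2 change 3.30, edgeR adjusted p = 7.41e-20). A region was tested when it exceeded 1.5 CPM in 4 libraries, so this one, below that in every young library, was tested through the old libraries alone, and its p is no independent support. In addition, 2 of the 8 largest rises lay 1109.95 and 1054.4 kb upstream of Ghitm, a gene for a mitochondrial inner membrane protein. The first, at chr14:38244970-38245580, went from 0.246 and 0.130 to 1.52 and 2.41, and the second, at chr14:38189455-38190035, from 0.128 and a value listed as 0 to 1.31 and 1.57. Their regions rose in accessibility by 2.86 and 2.55 on the log2 scale (edgeR adjusted p = 5.43e-23 and 1.37e-10), and the second was also tested through the old libraries alone. Ghitm RNA changed by 0.09 on the log2 scale (edgeR adjusted p = 0.117), below the threshold of the test.

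A peak 62.8 kb downstream of the start of Cog6, which encodes a subunit of a Golgi tethering complex, went from 0.999 and 0.829 to 3.97 and 4.57. Its region was already open in young HSCs, at 14.3 to 15.4 CPM, and reached 21.8 to 22.8 CPM in old HSCs, a change of 0.58 on the log2 scale that falls just short of the fold threshold. The peak upstream of Sgk1, the gene of a serum- and glucocorticoid-induced kinase, went from 0.140 and 0.702 to 2.20 and 2.53, its region from 0.868 to 1.76 CPM to 4.58 to 7.79 CPM, and Sgk1 RNA rose by 1.36 on the log2 scale (edgeR adjusted p = 5.48e-08). The peak upstream of Cysltr2, a cysteinyl leukotriene receptor gene, went from 0.854 and 1.23 to 4.10 and 4.54, and Cysltr2 RNA rose by 1.78 (edgeR adjusted p = 4.85e-16). At all 3 peaks the ages did not overlap. The peak 159 kb upstream of Kcnb2, a voltage-gated potassium channel gene, went from 0.186 and a value listed as 0 to 1.33 and 1.24, with repeats over 75.6% of its middle 500 bases.

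The 6 largest falls were smaller. All of them but the Crb2 peak had been called as peaks in young HSCs alone, so the same limit holds for them. The peak 55.6 kb downstream of the start of Dap, a death-associated protein gene, went from 2.05 and 1.54 in young to 0.485 and 0.563 in old HSCs (chr15:31279610-31280318, log2 change -1.16, SE 0.23, adjusted p = 0.00246 by limma). Its accessibility, at 30.4 to 32.8 CPM in young and 23.9 to 28.1 CPM in old HSCs, stayed within the fold threshold. The peak 279.996 kb upstream of Ascc3, the gene of a helicase of the ASCC complex, went from 0.969 and 1.25 to 0.359 and 0.116, and its region lost accessibility, from 4.46 to 5.92 CPM to 1.45 to 2.79 CPM (log2 change -1.34, edgeR adjusted p = 4.86e-08).

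The peak 17.8 kb upstream of Crb2, a cell polarity gene, had the highest signal of the 6 and the smallest change, from 2.71 and 2.26 to 1.01 and 0.998, and its region went from 5.58 to 7.18 CPM to 2.87 to 3.15 CPM (log2 change -1.09, edgeR adjusted p = 4.22e-08). The peaks nearest to Podxl, Olfr572 and Aym1 had no tested accessible region. They went from 1.09 and 0.983 to 0.486 and a value listed as 0 at Podxl, from 0.941 and 1.28 to 0.349 and 0.182 at Olfr572, and from 1.48 and 1.45 to 0.427 and 0.540 at Aym1. With a pseudocount of 0.1 the Podxl peak was not called by limma (adjusted p = 0.0533). Podxl RNA was higher in old HSCs by 0.68 on the log2 scale (edgeR adjusted p = 2.78e-05), Ascc3 RNA changed by 0.16, within the fold threshold, and Dap and Crb2 RNA by -0.08 and -0.17 (edgeR adjusted p = 0.404 and 0.615). Olfr572 and Aym1 were not tested in RNA. Repeats covered 99.2% of the Podxl window, and a GENCODE start lay within 1 kb of the Olfr572 peak. The peak 191 kb downstream of the start of Msrb3, a methionine sulfoxide reductase gene, whose sequence is printed above, went from 1.32 and 1.38 to 0.368 and 0.610, and its region from 1.76 ± 0.183 to 0.611 ± 0.130 CPM (SD, n = 4 each), so it was tested through the young libraries alone and had to differ.

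**Figure D3:**
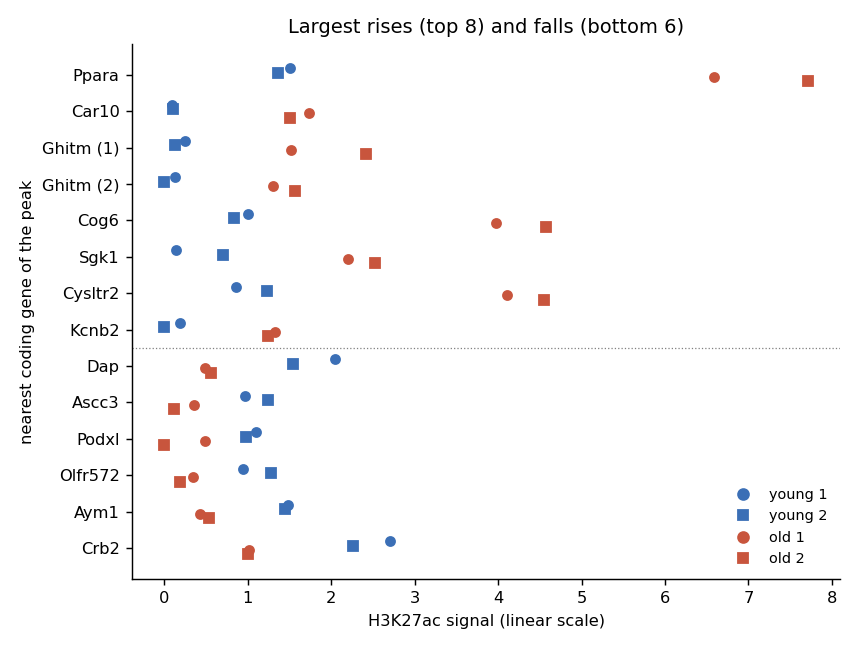
The H3K27ac signal, on a linear scale, of the 8 largest rises (top) and the 6 largest falls (bottom) among intergenic peaks called by the fold rule and limma, each named by its nearest coding gene, with 1 point per library (young blue, old red). The ages do not overlap in these peaks, which the fold rule that chose them requires, and the largest signals are the 6.58 and 7.72 of the old libraries at Ppara.

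An H3K4me3 peak lay on all of the 5 strongest intergenic peaks, and none of the 5 passed the fold rule. The peak nearest to Zfp958 had 19.9 and 18.5 in young and 20.1 and 20.9 in old libraries, the peak nearest to Sirt4 21.1 and 19.2 against 17.9 and 18.7, and the peak nearest to Anp32e, which encodes a histone H2A.Z chaperone, 19.5 and 17.8 against 17.2 and 17.2. The peak near Rabepk had 15.7 and 16.4 against 20.4 and 19.2 (log2 change 0.29, limma adjusted p = 0.0542). Among the 5, limma called the peak 2.48 kb upstream of the RefSeq start of Zfp36, with a GENCODE start of the same gene within 1 kb, which encodes an mRNA decay factor; it had 12.7 and 15.0 in young and 19.2 and 21.3 in old HSCs (log2 change 0.53, limma adjusted p = 0.000623), although its ratio of 1.46 fell short of the fold rule and Zfp36 RNA changed by 0.01.

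The 1561 higher peaks were spread over many genes, 1015 of which had a single one and 57 had 3 or more. The genes with the most are named here, and their sums run over the peaks that the fold rule picked, which fixes the direction. Cog6 was the nearest coding gene of 6 higher peaks among 13, 44.6 to 309 kb from its start, with summed signals of 12.7 and 14.1 in young and 26.4 and 30.4 in old libraries, over these 6, and limma called 5 of them. Ghitm had 5 higher peaks among 13 (summed signals 2.06 and 1.30, then 6.44 and 8.26), Rgs18, a regulator of G-protein signaling in megakaryocytes and platelets, 5 among 8 (6.01 and 5.33, then 9.44 and 10.1), and Zfp386 5 among 7 (2.00 and 1.93, then 5.39 and 7.57). Over all intergenic peaks of each gene, called or not, the median log2 change was 0.47 for Cog6, 0.38 for Ghitm, 0.45 for Rgs18 and 0.85 for Zfp386. Another 14 genes tied at 4 higher peaks. RNA of Rgs18 changed by 0.44 (SE 0.04, edgeR adjusted p = 4.65e-08), within the fold threshold, and that of Cog6 by 0.13 and of Zfp386 by 0.08. Among the lower peaks, Zfp703 had the most, 5 among 10 (8.23 and 8.05, then 4.97 and 4.24), none called by limma, with a median log2 change of -0.27 over its 10 peaks, and 11 genes tied at 2.

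Accessibility was measured in other libraries. Of the 12221 intergenic peaks, 10966 overlapped an accessible region that passed the filter of 1.5 CPM in 4 libraries. Regions low in one age passed this filter through the other age, so the shares below carry that choice. These peaks held 11137 tested regions, of which edgeR called 1201 gained (10.8%, against 10.1% of all tested regions) and 246 lost (2.21%, against 2.9%). Without the filter it called 1189 gained and 293 lost. On higher peaks, 579 of 1298 regions were gained (44.6%) and 2 lost. On lower peaks, 36 of 282 were lost (12.8%) and 6 gained, and on the other intergenic peaks 6.45% were gained and 2.16% lost. Regions on higher gene body peaks were gained to a like share, 43.4%, and those on higher promoter peaks to 20.1%. Counted by peaks, 45.2% of the 1282 higher peaks with a tested region had a gained one, and 48.0% of the 1205 intergenic peaks with a gained region were higher.

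The shift was present in each library. The median log2(CPM + 0.5) of regions on higher peaks was 2.19 to 2.25 in the 4 young and 2.81 to 2.89 in the 4 old libraries. On lower peaks it was 2.70 to 2.78 in the young and 2.48 to 2.54 in the old libraries, and on the other peaks 3.12 to 3.16 and 3.19 to 3.20. The ages did not overlap in any of the 3 sets, and regions on higher peaks remained below those on the other peaks in old HSCs, at -0.38 to -0.31 relative to them.

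**Figure D4:**
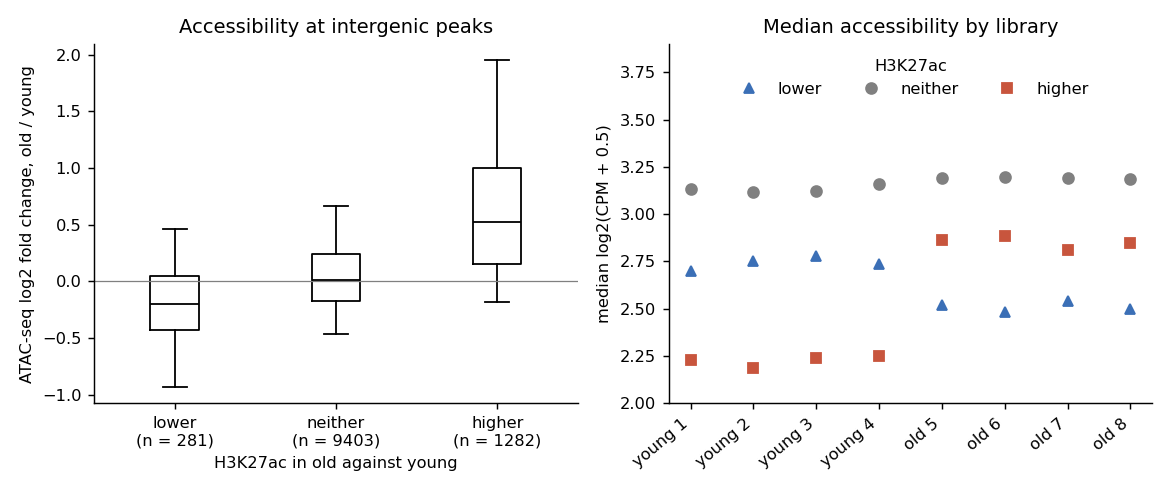
Left, ATAC-seq log2 fold changes at intergenic peaks that were lower (n = 281), neither (n = 9403) or higher (n = 1282) in H3K27ac, as boxes of the quartiles with the median and whiskers from the 5th to the 95th percentile; the medians are -0.20, 0.01 and 0.53. Right, the median log2(CPM + 0.5) of the regions on these peaks in each of the 4 young and 4 old libraries.

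The largest gains of accessibility on intergenic peaks lay far from coding genes. The region 783 kb upstream of Grm7, a glutamate receptor gene, had 0.551 to 1.38 CPM in young and 16.1 to 23.4 CPM in old libraries (log2 change 4.10, edgeR adjusted p = 3.07e-27), and its H3K27ac went from 0.250 and 0.224 to 1.13 and 1.76. The region 727 kb upstream of Tbl1xr1, a transcriptional co-regulator gene, went from 0.632 to 1.26 CPM to 11.3 to 13.3 CPM (log2 change 3.82), with H3K27ac from 0.312 and 0.338 to 1.53 and 1.89. Next were regions nearest to Emilin3, Ghitm and Fgfr2, with log2 changes of 3.53, 3.53 and 3.35, and all 5 lay on peaks that were higher by the fold rule. The regions of Grm7, Tbl1xr1, Emilin3 and Fgfr2 were below 1.5 CPM in all young libraries and were tested through the old ones alone, so they had to differ.

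The largest losses were smaller. The region nearest to Ostf1 went from 5.92 to 7.50 CPM in young to 1.49 to 2.19 CPM in old HSCs, that nearest to Mmp16 from 10.5 to 15.2 to 2.69 to 4.28 CPM, and that nearest to Ptgdr from 2.25 to 3.12 to 0.398 to 1.33 CPM, with log2 changes of -1.88, -1.85 and -1.74. All 3 lay on peaks that were lower by the fold rule, of which limma called the one near Ostf1 (adjusted p = 0.0404). The Ptgdr region was below 1.5 CPM in all old libraries and was tested through the young ones alone.

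Messenger RNA of the nearest coding genes moved in the same direction as the peaks for a minority of genes. Bulk RNA cannot tell fewer cells of a type from less RNA per cell. The intergenic peaks had 5554 distinct nearest coding genes, of which 5537 were matched in the RNA table and 4529 passed the filter on low counts. Of these, edgeR called 332 higher (7.33%, against 4.69% of all genes tested) and 192 lower (4.24%, against 2.83%). Of the 1032 tested genes nearest to a higher peak, 141 were higher (13.7%) and 30 lower (2.91%). Of the 254 nearest to a lower peak, 15 were higher (5.91%) and 27 lower (10.6%), and genes with neither kind of peak gave 5.43% and 4.19%. When noncoding starts were also allowed as the nearest start, 14 genes of lower peaks had lower RNA in place of 27.

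The share of genes with higher RNA is given by distance and by number of peaks as a description, without a test. RNA was higher for 24.5% of the 53 tested genes with a higher peak within 5 kb, for 16.0% at 5 to 50 kb, for 11.5% at 50 to 500 kb and for 4.11% farther away. Genes with 1 higher peak had higher RNA in 12.5% of cases, those with 2 in 17.1% and those with 3 or more in 22% (11 of 50). Genes of higher peaks with a gained accessible region had higher RNA in 15.7% of cases, and genes of higher peaks without one in 12.7%. The second set includes peaks without a tested region, and a gene can be in both sets.

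**Figure D5:**
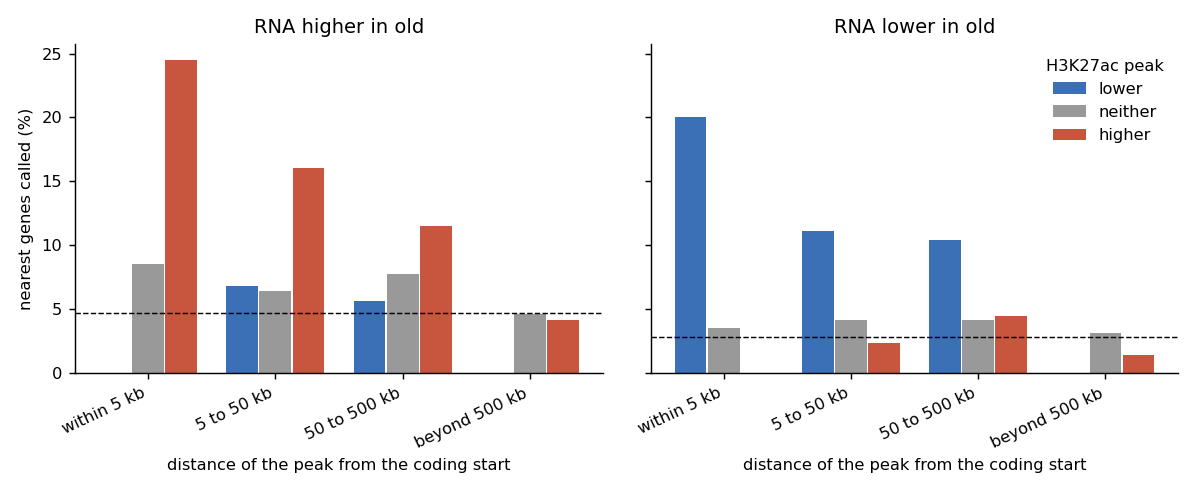
The percent of tested nearest coding genes whose RNA was higher (left) or lower (right) in old HSCs, by the distance of the peak from the gene's start, for genes of lower (blue), other (grey) and higher (red) intergenic peaks; the dashed lines are the shares over all genes tested, 4.69% and 2.83%. For higher peaks the left bars decline from 24.5% within 5 kb to 4.11% beyond 500 kb. The set within 5 kb of a lower peak holds 5 genes.

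The largest RNA rises among the nearest genes of higher peaks are given as CPM, with the lowest, median and highest of the 8 old libraries. Sbspon, which encodes a somatomedin B and thrombospondin domain protein, had 2.32, 3.38, 3.01 and 2.84 CPM in young and 64.5, 87.0 and 108 CPM in old HSCs (log2 change 4.89, SE 0.19, edgeR adjusted p = 9.56e-10). Its peak, 92.7 kb downstream of the start, went from 1.32 and 1.59 to 2.76 and 3.89 in H3K27ac. Tmem215 went from 0.632 to 1.53 CPM in young to 14.6, 27.8 and 47.1 CPM, Rassf10 from 0.0449 to 0.541 to 4.07, 6.22 and 9.04 CPM, and Kcnb2 from 0.337 to 1.03 to 8.93, 17.4 and 25.6 CPM. All old libraries lay above all young ones in each of these 4 genes.

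Gipc2 had 0.506 to 0.948 CPM in young and 6.38, 9.41 and 13.1 CPM in old HSCs, and its peak, 5.26 kb upstream, went from 0.619 and 0.510 to 1.22 and 1.76 with a gained accessible region. Rbpjl, an RBPJ-related transcription factor gene, had 2.28 to 3.96 CPM in young and 22.5, 34.6 and 42.3 CPM in old HSCs, and Cldn5, a tight junction claudin gene, 6.70 to 9.42 and 55.8, 69.4 and 83.1 CPM. Vldlr, the very low density lipoprotein receptor gene, had 16.5 to 23.2 and 73.5, 120.2 and 185 CPM. Of the peaks of these 8 genes, those of Rassf10, Rbpjl and Cldn5 passed the fold rule but not limma (adjusted p = 0.161, 0.422 and 0.305).

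RNA fell at 30 genes nearest to a higher peak, and the 4 largest falls are given here. Btla, an inhibitory lymphocyte receptor gene, had 1.64, 0.811, 3.50 and 3.34 CPM in young and 0, 0.155 and 0.394 CPM as the lowest, median and highest in old HSCs. Cd22, a B cell inhibitory receptor gene, had 3.70 to 8.57 CPM in young and 0.336 to 1.03 CPM in old HSCs, Cd83 4.29 to 5.57 and 0.313 to 1.14 CPM, and Kynu, the kynureninase gene, 3.16 to 4.33 and 0.517 to 1.18 CPM. The log2 changes were -3.74, -3.07, -2.90 and -2.25, each past the threshold of edgeR, and none of the 4 peaks passed limma (adjusted p = 0.0686 to 0.206). Btla lay below the filter on low counts in every old library and was tested through the young libraries alone, so its call is no independent support. The summed level of 7 B cell markers was 89.1 to 170.1 CPM in the young and 34.4 to 42.7 CPM in the old libraries. All 7 were lower (against 2.83% of all tested genes), with none at 0 in all libraries. The part of this level in these results was not tested.

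Among the nearest genes of lower peaks, Bank1, a B cell scaffold protein gene, fell from 13.2 to 22.2 CPM in young to 0.895, 2.17 and 2.81 CPM in old HSCs (log2 change -3.17, edgeR adjusted p = 8.53e-10), and its peak went from 2.52 and 1.74 to 1.22 and 1.117. Ccr7, a chemokine receptor gene of lymphocytes and dendritic cells, fell from 1.31 to 2.84 to 0.0862, 0.239 and 0.540 CPM, and its peak, 13.1 kb upstream, from 2.16 and 2.37 to 1.38 and 1.05 (limma adjusted p = 0.0450). Plxna2, a semaphorin receptor gene, fell from 11.4 to 13.5 to 1.62, 2.94 and 3.87 CPM. In the other direction, RNA of Gpx3, a secreted glutathione peroxidase gene, rose from 5.12 to 6.45 to 16.7, 22.3 and 27.1 CPM, that of Enpp5 from 126 to 148 to 343, 370.1 and 456 CPM, and that of Slc16a12 from 18.04 to 21.5 to 37.6, 47.5 and 57.3 CPM, although their peaks were lower by the fold rule. Among these 6 peaks, limma called that of Ccr7 and not those of Bank1, Plxna2, Gpx3, Enpp5 and Slc16a12 (adjusted p = 0.0743 to 0.208).

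Of the blood regulators list (32 genes), 27 were the nearest coding gene of 140 intergenic peaks, of which 15 were higher (10.7%, against 12.8% of all intergenic peaks) and 2 lower (against 2.74%). RNA was higher for 3 and lower for 2 of 31 tested genes of this list, against 4.69% and 2.83% of all tested genes. The strongest peak was examined for 8 of the blood regulators, and none of the 8 passed either the fold rule or limma. The peak 3.63 kb upstream of Tal1 had 5.68 and 5.66 in young and 5.91 and 6.15 in old libraries, and the peak 23.7 kb upstream of Lmo2 10.4 and 10.5 against 10.7 and 11.9. The peak 156 kb downstream of the start of Kit had 9.47 and 8.24 against 8.89 and 9.66, and the one 0.621 kb from the start of Spi1, the gene of PU.1, 6.79 and 6.19 against 6.24 and 7.59. The strongest peaks of Irf8 (2.87 and 2.58 against 2.55 and 2.63), Myc (2.21 and 2.18 against 1.96 and 1.80) and Cebpa (0.517 and 1.05 against 1.47 and 0.771) also had limma adjusted p-values of 0.901, 0.678 and 0.545.

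Gata2, which encodes a factor of stem cell maintenance, had a weaker peak that was called. This peak, 27.2 kb upstream (the sequence is printed above), had 1.33 and 1.22 in young and 2.32 and 2.44 in old libraries (log2 change 0.70, limma adjusted p = 0.0362), and its accessibility went from 2.60 to 3.72 CPM to 7.11 to 8.54 CPM (log2 change 1.33, edgeR adjusted p = 1.16e-10). Its strongest peak, 41.5 kb upstream, had 3.39 and 3.25 against 4.76 and 4.74 (limma adjusted p = 0.0923), and Gata2 RNA changed by 0.40 (SE 0.05, edgeR adjusted p = 1.09e-06), within the fold threshold. Runx1, the gene of a core blood transcription factor, had 4 higher peaks among 12, all 299 to 372 kb upstream. The first of them, printed above, had 0.803 and 0.805 against 1.82 and 2.46 (limma adjusted p = 0.00399) and 2.64 to 3.43 against 4.64 to 5.86 CPM in accessibility.

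Single peaks of 3 other regulators also passed limma, those of Bcl11a and Kit by a narrow margin. The peak 64.7 kb upstream of Runx3 had 0.931 and 0.700 against 1.90 and 2.07 (limma adjusted p = 0.00988) and no tested accessible region, and Runx3 RNA rose from 15.1 ± 3.59 CPM (SD, n = 4) to 24.3 ± 1.93 CPM (SD, n = 8). The peak 156 kb downstream of the start of Bcl11a, printed above, had 3.04 and 2.90 against 4.57 and 4.62, with limma adjusted p = 0.0418. With a term for the replicate number in the limma fit it was no longer called (adjusted p = 0.0635). Bcl11a RNA changed by 0.06. Kit had 1 peak that was higher, 179 kb downstream of its start (1.49 and 1.46 against 2.82 and 2.39, limma adjusted p = 0.0480). This Kit peak was no longer called (limma adjusted p = 0.0536 to 0.0590) with a pseudocount of 0.1, either other scaling, a minimum mean signal of 1 or the replicate term. Its region changed by 0.44 in accessibility (edgeR adjusted p = 0.0837). Another Kit peak was lower, 131 kb downstream (1.78 and 2.03 against 1.17 and 1.10, limma adjusted p = 0.132). The higher peaks of Meis1 (ratios 1.81 and 2.06), Mecom (2.14), Erg (1.70) and Myc (1.60), the other 3 of Runx1 (1.81, 1.77 and 1.78) and the second ones of Runx3 (1.76) and Bcl11a (1.53) passed the fold rule and not limma.

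In the list of HSC aging genes (30 genes), which was drawn up with RNA results of these samples known and is no independent evidence of direction, RNA was higher for 27 of 30 (against 4.69% of all tested genes). Of the 30, 14 were the nearest gene of 38 intergenic peaks, of which 5 were higher (13.2%, against 12.8% of all intergenic peaks) and 1 lower (against 2.74%). The higher ones lay nearest to Alcam, Ehd3, Itgb3 and Sbspon. The Ehd3 peak went from 0.511 and 0.328 to 0.951 and 1.60 with a gain of accessibility of 3.27 on the log2 scale, and the Itgb3 peak from 0.786 and 0.744 to 1.71 and 1.82 (limma adjusted p = 0.0385 and 0.0239). The lower one belonged to Enpp5, whose RNA rose. In the megakaryocyte list, 3 of 12 peaks were higher (25%, against 12.8%) and 0 lower (against 2.74%). The higher ones lay nearest to Gp1ba, Gp9 and Itgb3, genes of platelet adhesion receptors. Of these, limma called the Itgb3 peak and not those of Gp1ba and Gp9 (adjusted p = 0.0773 and 0.133). RNA was higher for 6 and lower for 2 of 18 tested genes, where 4.69% and 2.83% of all tested genes were.

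In the lymphoid list, 4 of 18 peaks were higher (22.2%, against 12.8%), nearest to Gata3 (2 peaks), Bcl11b and Il7r, and 2 were lower (against 2.74% of all intergenic peaks), nearest to Cd79b and Notch1, while RNA was lower for 8 of 18 tested genes (against 2.83% of all) and higher for 0. None of the 4 higher peaks passed limma, and the Cd79b peak, 4.42 kb from the start of this B cell receptor gene, did (2.05 and 2.80 against 1.41 and 1.125, limma adjusted p = 0.0368). In the AP-1 list, 6 of 41 peaks were higher (14.6%, against 12.8%), 3 of them nearest to Jun, 2 to Maf and 1 to Junb, and 0 lower (against 2.74%). The Junb peak, 2.42 kb from its start, had 4.29 and 5.25 against 7.69 and 8.16 (limma adjusted p = 0.00223), and the Jun peak at 114 kb 0.874 and 0.998 against 1.92 and 2.30 (limma adjusted p = 0.0137). The other higher Jun peaks and those of Maf did not pass limma (adjusted p = 0.0744 to 0.260). RNA was higher for 3 and lower for 0 of 13 tested genes of this list, against 4.69% and 2.83% of all tested genes. Jun RNA rose from 22.5 ± 1.11 CPM (SD, n = 4) to 57.0 ± 10.3 CPM (SD, n = 8), and Maf RNA from 6.03 ± 0.802 to 19.8 ± 2.74 CPM over the same libraries.

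Reads counted in genes numbered 20475764 to 24122404 per young and 22175623 to 24654742 per old RNA library. ATAC-seq regions held 15427933 to 26260337 reads per young and 20033166 to 25920194 per old library, and the H3K27ac table gives no depth. Pearson's correlation of the signal across intergenic peaks, which are not independent, was 0.931 between the young and 0.951 between the old H3K27ac libraries, and 0.880 to 0.897 between ages. The 10 HSC markers summed to 4461 to 4911 CPM in young and 4471 to 5128 CPM in old RNA libraries. T cell markers summed to 2.43 to 3.46 and 1.125 to 5.26 CPM, granulocyte and monocyte markers to 20.2 to 150.3 and 19.6 to 66.6 CPM, erythroid markers to 38.3 to 49.4 and 28.9 to 94.6 CPM, and megakaryocyte markers to 147 to 185 and 256 to 353 CPM. By edgeR, 1 of 10 HSC markers was higher, 1 of 5 erythroid markers was higher and 2 lower, 1 of 4 megakaryocyte markers was higher and 1 lower, 1 of 6 tested granulocyte and monocyte markers was lower, and the 1 tested T cell marker was not called. Over all tested genes, 4.69% were higher and 2.83% lower. The part of these cell types in the results was not tested.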

How the data were processed

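For H3K27ac and H3K4me3, the authors deposited a signal per peak, from libraries aligned to mm10 and normalized to a fixed number of reads; whether a peak's value is a mean or a sum was not stated. H3K27me3 signal was deposited in the same way and used for overlap only. The deposited H3K36me3 table holds positions. For ATAC-seq, the authors deposited raw counts per consensus region, and for mRNA-seq raw counts per gene from STAR and featureCounts. Columns with the authors' own fold changes were not used, nor were 8 columns of per-sample values that no listed sample matched.

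Signals were compared with limma 3.58.1 (trend, robust) on log2(signal + 0.5), 2 young against 2 old, and by the fold rule. Counts were compared with edgeR 4.0.16 (TMM, robust quasi-likelihood test, Benjamini-Hochberg adjustment) in R 4.3.3: ATAC-seq regions above 1.5 CPM in at least 4 libraries, called at a fold above 1.5 and an adjusted p below 0.01, and genes kept by filterByExpr, called at a fold above 1.5 and an adjusted p below 0.05. Printed CPM use TMM library sizes. A region belonged to a peak when they shared at least 1 bp (bedtools 2.31.1).

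The table names no gene for intergenic peaks, so the nearest gene was the nearest start of a curated protein-coding RefSeq transcript from the middle of the peak, a choice made after the data were seen. The RNA of such a gene need not depend on the peak. Sequence came from RefSeq's GRCm38, the assembly of mm10. On simulated data with 200 features changed by a fold of 2, the fits recovered 85% of peaks, 85% of regions and 72% of genes. False calls numbered 7, 5 and 3. These rates were not split by signal level. Of the 1561 higher intergenic peaks, 483 had a mean signal below 1, and the rates need not hold for them. The H3K27ac, ATAC-seq and RNA libraries were checked for pairs with identical values, and 0 pairs were found.

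Members and lists were chosen with earlier results of these data known. Named were the 8 largest rises and 6 largest falls called by both methods, the 5 highest peaks, the genes nearest to most changed peaks (5 and 3, less where ties did not allow it), the largest RNA changes among nearest genes of higher peaks (8 rises, 4 falls) and lower peaks (3 rises, 4 falls, of which 1 is not reported here), the 5 largest gains and 3 largest losses of accessibility, and, of the blood regulators, the changed peaks and the highest peak of 8 genes. Lists covered blood regulators, HSC aging, megakaryocyte, lymphoid and AP-1 genes and markers of HSCs, B cells, T cells, granulocytes and monocytes, erythroid cells and megakaryocytes. Alternatives were other scalings, pseudocounts, thresholds, filters and tools, a replicate block and the leaving out of each library.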

Additional observations from a re-analysis of the deposited data

Results flagged for a closer look

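Dixon's criterion was applied to 54 groups of 4 or 8 libraries, those of the named genes' RNA and the named regions' accessibility, and 1 stood out, where chance alone flags about 1 group in 20. RNA of Slc16a12 in young replicate 4 was 21.5 CPM, and the nearest of the other young libraries had 18.4 CPM. All old libraries lay above both values.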

How the results depend on the processing

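Scaling the libraries to the same median gave 515 lower peaks by the fold rule, 122 lower by limma and a difference of 0.018 between the ages' median log2 levels (0.089 without it), and quantile normalization 864 higher and 701 lower by the fold rule, 171 lower by limma, a difference of 0.000989 between those medians, and differences between the ages of 0.0439 in the level relative to promoters and -0.00769 relative to gene bodies. A ratio above 2 left 547 higher and 63 lower peaks, and 0.5 added before the ratios 859 and 131. With a pseudocount of 0.1 the difference relative to promoters was 0.15. A fold above 2 left 468 gained and 26 lost regions on intergenic peaks, 172 nearest genes with higher and 98 with lower RNA, 82 of higher peaks with higher RNA and 13 of lower peaks with lower RNA. With noncoding starts allowed, an alternative chosen after seeing the data, the last count was 14 of 203 tested genes, against 27 of 254 in the main setting.

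Leaving out single H3K27ac libraries gave 1689 to 2888 higher and 445 to 713 lower peaks by the fold rule and 26 to 1588 higher and 1 to 234 lower by limma. The most higher peaks came without young replicate 1 (2888 by the fold rule, 1588 by limma, with 171 lower by limma) and the most lower peaks without young replicate 2 (713 and 234). Without old replicate 1, limma called 88 higher and 9 lower and the fold rule 573 lower, and without old replicate 2, limma called 26 and 1 and the fold rule 558 lower. The difference relative to gene bodies ranged from -0.0073 to 0.0029 and turned positive without young replicate 2. The difference between median levels ranged from 0.03 to 0.15 and the difference relative to promoters from 0.10 to 0.14, both positive throughout. In the ATAC-seq and RNA fits, no single library moved a count past 1.5 times.

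Replicate numbers are shared between ages in H3K27ac and RNA, but did not pair the samples: deviations of same-numbered libraries correlated at 0.0089 over intergenic peaks and at -0.24 to 0.04 over genes in RNA, where 0 of 4 young libraries correlated best with their own number. With the replicate block, limma called 509 higher and 56 lower peaks, and edgeR 307 nearest genes with higher and 170 with lower RNA, 135 of higher peaks with higher RNA and 26 of lower peaks with lower RNA. The named higher peaks of Bcl11a and Kit then lost their limma calls (adjusted p = 0.0635 and 0.0555). The deposited H3K27ac table gives no reads per peak, and no counting error was set on a peak's signal.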
